A study of Mus musculus with 12 samples.

Results

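The glutathione S-transferases (Gst), UDP-glucuronosyltransferases (Ugt) and cytosolic sulfotransferases (Sult) of mouse liver were taken as every gene whose symbol follows the naming of one of these families and that had 10 or more reads in at least 3 of the 12 libraries. Of 63 such symbols in the deposited tables of 48440 genes, 48 met the read minimum: 19 of 21 Gst, 20 of 21 Ugt and 9 of 21 Sult genes. The 15 others were Gsto2, Gstt4, Ugt2a2 and 12 Sult genes, among them Sult1e1, Sult2a1 and Sult3a1, and none of the 12 Sult genes had more than 9 reads in any library. All 48 also passed the count filter of the test below. Values called levels are the authors' RPKM, which correct for gene length. Values compared between libraries for one gene are CPM, read counts scaled to library size by the trimmed-mean (TMM) method.

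Poly(A) RNA of whole liver had been sequenced from male C57BL/6 mice aged 8 weeks, fed chow, untreated, and kept in equal spans of light and dark. The 4 groups of 3 libraries were mice with liver-specific E4BP4 overexpression taken at ZT14 (TG ZT14), wild-type mice at ZT14 (WT ZT14), transgenic mice at ZT2 (TG ZT2) and wild-type mice at ZT2 (WT ZT2), where ZT counts hours from lights on, so that ZT14 is early night and ZT2 early day. E4BP4, encoded by Nfil3, is a repressor that binds the D-box, the DNA element at which the circadian activators DBP, TEF and HLF also bind. The sources used here name neither the promoter of the transgene nor the number of founder lines, and do not state that each library is a separate mouse, so p-values measure the spread between these libraries.

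Phase II enzymes attach a water-soluble group to foreign compounds, hormones, bilirubin and bile acids so that they can be excreted in bile or urine. Gst proteins conjugate glutathione to reactive compounds, Ugt proteins in the endoplasmic reticulum transfer glucuronic acid from UDP-glucuronic acid, and Sult proteins transfer sulfate from the activated donor PAPS. In mouse liver many of these genes are known to respond to the xenobiotic sensors CAR and PXR and to NRF2, and several differ between the sexes.

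The libraries held 16035121 to 23981021 gene reads, of which 81.2% to 85.5% were uniquely placed. Nfil3 had 63.8, 93.9 and 77.9 CPM in TG ZT14 livers, against 28.1, 40.4 and 24.6 CPM in WT ZT14 livers. At ZT2 it had 71.1, 69.8 and 62.6 CPM in TG livers, against 48.8, 29.4 and 37.6 CPM in WT livers. Every TG library exceeded every WT library, and the log2 fold change averaged over both times was 1.07 (SE 0.15; adjusted p = 0.00942, edgeR's quasi-likelihood test, Benjamini-Hochberg over 15244 genes). At ZT14 alone it was 1.34 (adjusted p = 0.0306) and at ZT2 alone 0.81 (adjusted p = 0.359). Hepatocyte markers led the libraries, with a summed level of 32501 to 43430 RPKM over 7 genes. A pair of libraries, TG ZT14 replicate 3 and TG ZT2 replicate 2, stood apart from the other 10 on the second principal component (-33.2 and -30.8, all others above 0). In this pair, 17 female-biased liver genes outside the 3 families averaged 0.93 and 1.25 higher on the log2 scale than WT livers of the same time, and 25 male-biased genes averaged -0.76 and -0.85. TG ZT2 replicate 3 had smaller shifts of the same sign (0.51 and -0.34), and the female-biased genes stood at 0.31 in TG ZT14 replicate 2. In TG livers stellate cell and fibroblast markers (7 genes) summed to 43.9 to 62.7 RPKM at ZT14 and 47.5 to 60.4 RPKM at ZT2, against 39.3 to 44.0 and 34.9 to 44.7 RPKM in WT livers, with a slight overlap at ZT14. Dcn was the highest of the 7, with a median of 31.2 RPKM over the 12 libraries, and the other medians were 4.87 RPKM or less. Erythroid markers (5 genes) summed to 307 to 505 RPKM in TG ZT14 livers, against 231 to 273 RPKM in WT ZT14 livers, with overlap at ZT2. None of these markers was at 0, and their part in the results below was not tested. In bulk liver, fewer cells of a type and less RNA per cell cannot be told apart.

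Gst transcripts were the most abundant of the 3 families, and a single gene made up most of the Gst and of the Sult level. The mean levels summed to 4989 RPKM for Gst, 1626 RPKM for Ugt and 299 RPKM for Sult genes. Gstp1, a pi-class transferase that is higher in males than in females in mouse liver, stood at 2964 RPKM, 59.4% of the Gst sum. It was followed by Gstm1 (704 RPKM), Gsta3 (665 RPKM), which conjugates aflatoxin epoxide in mice, and Gstz1 (244 RPKM), the maleylacetoacetate isomerase of tyrosine breakdown. Among the Ugt genes the level was more evenly spread. Ugt2b5 stood at 414 RPKM, Ugt2b1 at 271 RPKM, Ugt1a1, the bilirubin-conjugating enzyme, at 239 RPKM and Ugt2b36 at 206 RPKM. Sult2a8, a hydroxysteroid and bile acid sulfotransferase, stood at 167 RPKM and held 55.8% of the Sult sum, with the phenol sulfotransferase Sult1a1 at 90.1 RPKM, Sult1d1 at 29.9 RPKM and Sult5a1 at 5.72 RPKM. In all, 31 of the 48 genes were at 10 RPKM or more and 6 were below 1 RPKM, and nearly all reads of Sult2a2 and Sult2a4 lay in introns (98.2% of those of Sult2a2 and every one of Sult2a4).

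**Figure D1:**
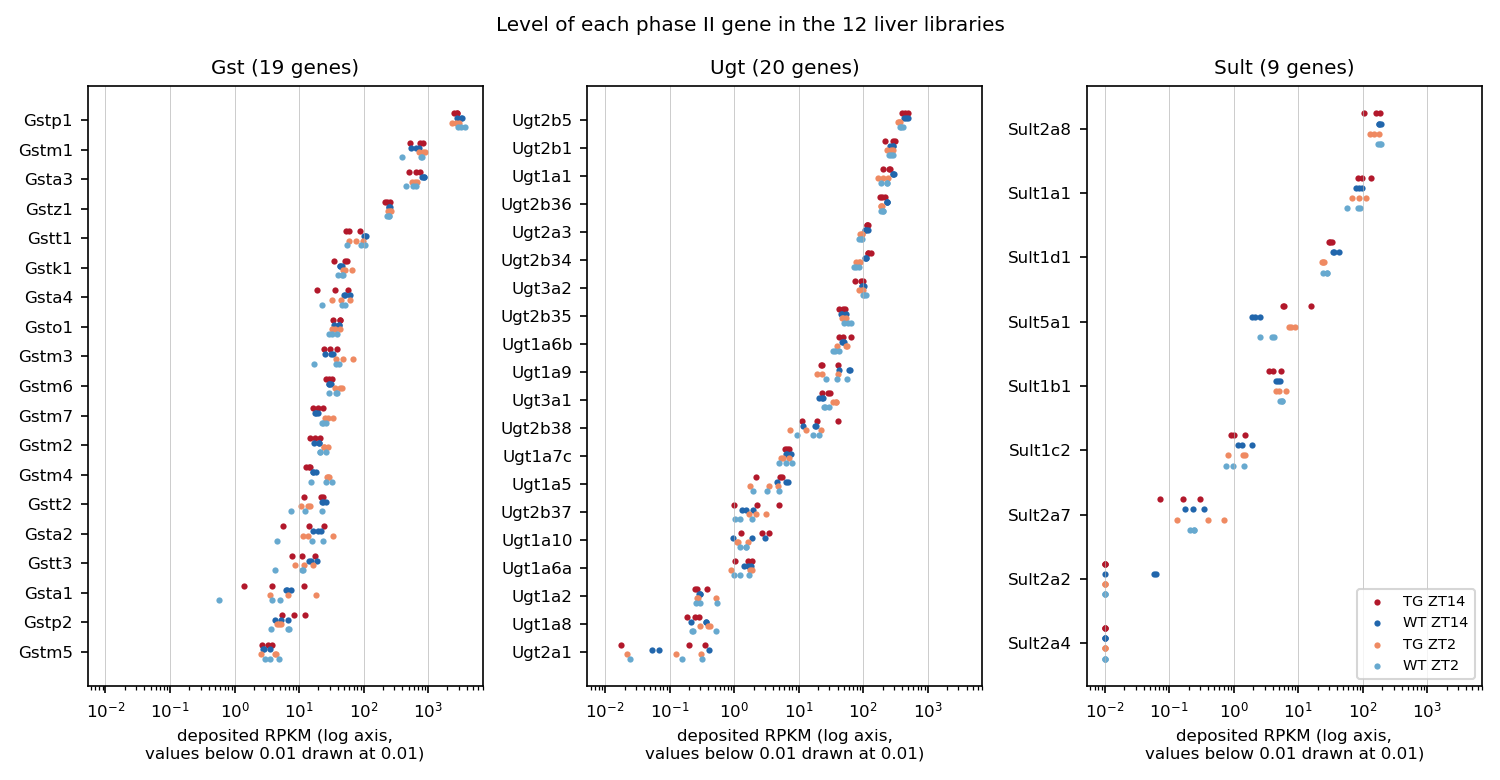
Deposited RPKM of the 48 genes in each of the 12 liver libraries, on a log axis, with 1 panel per family and genes ordered by mean level; colours mark TG ZT14, WT ZT14, TG ZT2 and WT ZT2. Gstp1 is highest at 2964 RPKM on average, and Sult5a1 is a gene whose TG points lie to the right of all its WT points.

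Many of these genes lie in clusters of close copies, which limits how far their reads can be told apart. The 9 Ugt1a genes share their last exons at 1 locus on chromosome 1, and 0 to 5.38% of the reads given to each were uniquely placed. The share was 48.5% for Gstp1 and 46.0% for its near-identical neighbour Gstp2, 21.9% for Gstt3, 61.5% for Sult5a1 and 69.2% for Gsta3. In contrast it was above 94% in the 7 Gstm genes of chromosome 3 and 99.9% or more in Ugt2b1, Ugt2b34, Ugt2b36 and Sult1d1. The 12 genes under 50% are uncertain as single genes.

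Because E4BP4 acts at D-boxes, the RefSeq promoter table (GRCm38.p6, from 250 bases before to 50 bases after a start) was searched on both strands for the D-box letters TTATGTAA and TTACGTAA, for TGACNNNGC, the core to which NRF2 binds, and for CACGTG and CACGTT, E-box letters to which the clock activators CLOCK and BMAL1 bind. The table held 51 promoters of 42 of the 48 genes. TTATGTAA was in 0.938% of all 32851 promoters and in 1 of the 51, that of Ugt2b1, at bases -59 to -52 on the minus strand. TTACGTAA was in 0.119% of all promoters and in 0 of the 51. TGACNNNGC was in 12.4% of all promoters and in those of Gsta3, Gstm5 and Gstm7, for the last at a start other than the outermost. CACGTG was in 7.15% of all promoters and in 0 of the 51, and CACGTT was in 4.68% of all promoters and in 4 of the 51, those of Gstm1, Gstp1, Gstp2 and Ugt2b35. The 250 bases before the start are shown for Sult5a1, the gene that differed by genotype, for Ugt2b1, the gene with the D-box letters, and for Gsta3 and Gstm4, the genes with the largest called time differences in WT and in TG livers. Capitals mark letters that match a motif searched, for Ugt2b1 the reverse complement of TTATGTAA.
Sult5a1 promoter, chr8:123158281-123158530, minus strand: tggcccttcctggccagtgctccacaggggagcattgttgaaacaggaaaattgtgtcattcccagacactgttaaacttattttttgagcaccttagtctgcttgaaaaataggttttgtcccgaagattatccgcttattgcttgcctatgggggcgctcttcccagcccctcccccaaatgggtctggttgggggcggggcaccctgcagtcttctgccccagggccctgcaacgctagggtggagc
Ugt2b1 promoter, chr5:86926504-86926753, minus strand: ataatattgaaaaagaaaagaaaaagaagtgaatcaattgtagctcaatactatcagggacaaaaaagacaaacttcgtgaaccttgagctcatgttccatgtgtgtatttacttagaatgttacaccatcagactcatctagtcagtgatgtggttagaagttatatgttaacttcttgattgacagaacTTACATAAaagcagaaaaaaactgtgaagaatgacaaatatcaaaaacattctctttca
Gsta3 promoter, chr1:21240335-21240584, plus strand: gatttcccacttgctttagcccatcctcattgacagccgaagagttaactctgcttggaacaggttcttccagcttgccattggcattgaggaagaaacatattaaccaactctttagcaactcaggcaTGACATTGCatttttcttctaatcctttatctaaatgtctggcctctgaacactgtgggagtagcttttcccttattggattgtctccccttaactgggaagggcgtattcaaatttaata
Gstm4 promoter, chr3:108044860-108045109, minus strand: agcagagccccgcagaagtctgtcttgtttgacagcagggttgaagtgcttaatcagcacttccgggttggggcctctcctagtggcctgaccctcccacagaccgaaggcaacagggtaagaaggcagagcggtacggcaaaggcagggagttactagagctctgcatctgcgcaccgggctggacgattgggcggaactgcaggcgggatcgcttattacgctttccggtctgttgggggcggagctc
The windows of Sult5a1 and Gstm4 hold none of these letters, which says nothing of binding elsewhere, and Ugt2b1 differed little between TG and WT livers (log2 fold change -0.06 at ZT14 and -0.05 at ZT2, SE 0.14 each).

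One of the 48 genes passed the test for genotype. Sult5a1, a sulfotransferase gene with little known of its substrates, was higher in TG livers than in WT livers when both times were averaged. It had 14.2, 44.2 and 13.6 CPM in TG ZT14 livers, against 4.18, 5.68 and 3.60 CPM in WT ZT14 livers. It had 17.3, 17.98 and 23.4 CPM in TG ZT2 livers, against 5.32, 9.62 and 9.93 CPM in WT ZT2 livers. All 6 TG libraries lay above all 6 WT libraries, a separation seen in 0.302% of all genes in either direction, and the highest, TG ZT14 replicate 2, stood well above the other 5 TG libraries. Averaged over both times the log2 fold change was 1.83 (SE 0.30; 3.56-fold; adjusted p = 0.0359, edgeR, Benjamini-Hochberg). Taken alone, ZT14 gave 2.42 (SE 0.43; adjusted p = 0.0843) and ZT2 gave 1.24 (SE 0.41; adjusted p = 0.538). Of all genes tested, 0.144% passed for the mean of both times, 0.0853% at ZT14 and 0.0722% at ZT2 (edgeR), and the members numbered 1, 0 and 0 of 48, or 3, 1 and 0 with DESeq2. Sult5a1 was also the single member without overlap in the same direction at both times, as were 0.971% of all genes.

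The Sult5a1 result rests on few reads and is close to the threshold. The gene had 299 to 1047 reads per TG library and 84 to 192 per WT library. Leaving out any 1 of the 6 WT libraries or of the 3 TG ZT2 libraries moved the adjusted p to between 0.0541 and 0.125 (edgeR), while the call held without each TG ZT14 library. Without TG ZT14 replicate 2 the log2 fold change at ZT14 was 1.63. The share of its reads in introns was 27.1%, 37.4% and 27.5% in TG ZT14 livers, against 8.70%, 22.6% and 7.14% in WT ZT14 livers, and 23.4%, 26.3% and 32.7% in TG ZT2 livers, against 10.6%, 22.4% and 29.2% in WT ZT2 livers. With uniquely placed reads alone the mean difference was 1.503 (adjusted p = 0.00967), and with exon reads alone 1.60. Sult5a1 (chr8:123142847-123158315, minus strand, by the build of the files, mm10/GRCm38) lies within Gm20388, annotated on the other strand, and no source states that counting used strand. Gm20388 itself differed by 0.02 on the log2 scale (SE 0.07; adjusted p = 0.958, edgeR), and the next gene, Dpep1, by 0.71 (SE 0.39; adjusted p = 0.621).

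**Figure D2:**
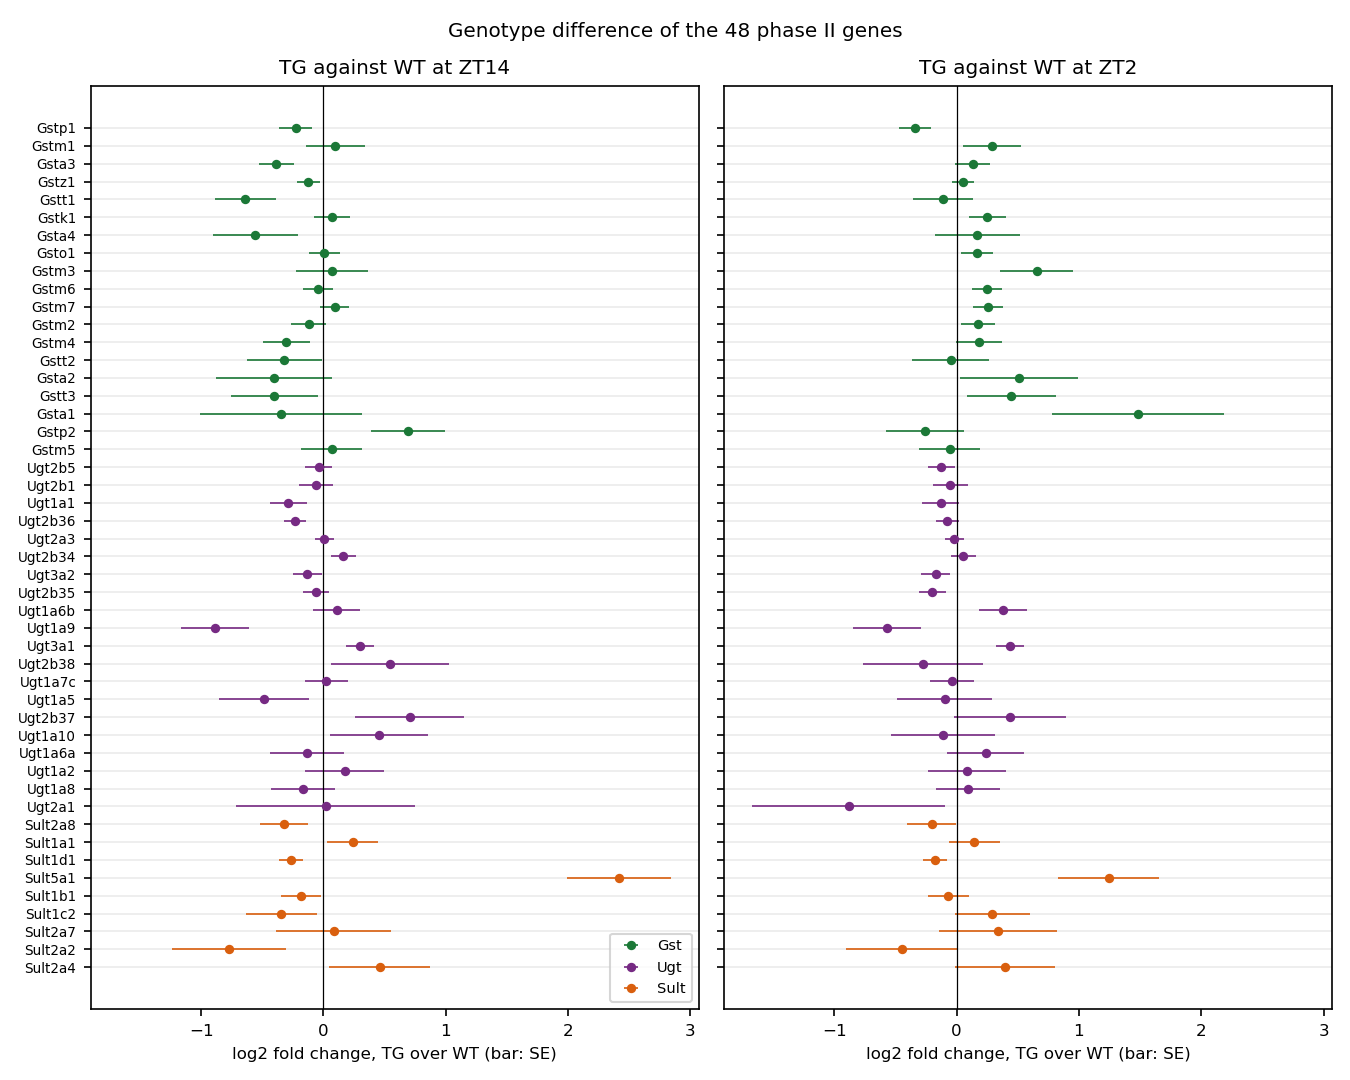
Log2 fold change of TG over WT livers with its SE for the 48 genes at ZT14 and ZT2, with families in colour and genes ordered by mean level within each. Sult5a1 lies farthest to the right at ZT14 (2.42), while most of the other genes lie within 0.5 of 0, and Gsta1 and Sult5a1 lie farthest to the right at ZT2 (1.48 and 1.24), where Gsta1 has a wide bar and stood at 0.65 without TG ZT2 replicate 2.

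The other 47 genes did not pass for genotype, and the family medians lay near 0. The median log2 fold change was -0.12 at ZT14 and 0.17 at ZT2 over the 19 Gst genes, -0.02 and -0.06 over the 20 Ugt genes, and -0.19 and 0.14 over the 9 Sult genes, beside 0.01 and -0.00 over all genes tested. These medians moved with single libraries left out. At ZT14 they ran from -0.23 (without TG ZT14 replicate 3) to -0.00 (without TG ZT14 replicate 1) for Gst, from -0.13 (without TG ZT14 replicate 1) to 0.08 (without TG ZT14 replicate 3) for Ugt, and from -0.31 (without TG ZT14 replicate 2) to -0.05 (without TG ZT14 replicate 3) for Sult. At ZT2 they ran from 0.03 (without WT ZT2 replicate 3) to 0.28 (without WT ZT2 replicate 2) for Gst, from -0.10 (without TG ZT2 replicate 1) to -0.01 (without TG ZT2 replicate 2) for Ugt, and from -0.18 (without TG ZT2 replicate 3) to 0.28 (without TG ZT2 replicate 1) for Sult. At an unadjusted p below 0.05 there were 8 of 48 members at ZT14, 4 at ZT2 and 6 for the mean of both times, or 16.7%, 8.33% and 12.5%, beside 6.91%, 7.56% and 8.82% of all genes. Members without overlap between the 3 TG and 3 WT libraries numbered 9 at ZT14, of which 7 were lower in TG, and 5 at ZT2. These are 18.8% and 10.4% of the members, beside 12.4% and 12.1% of all genes, and the 7 lower are 14.6%, beside 6.32%.

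The next genes by p were 2 Ugt genes, Sult1d1 and Gstp1. Ugt3a1, which uses N-acetylglucosamine as sugar donor in humans, had 80.7, 87.7 and 62.1 CPM in TG ZT14 livers and 58.6, 65.7 and 63.1 CPM in WT ZT14 livers. In ZT2 livers it had 101, 103 and 107 CPM in TG livers and 74.6, 83.9 and 71.6 CPM in WT livers, with no overlap at ZT2 but with TG replicate 3 inside the WT range at ZT14. The mean log2 difference was 0.37 (SE 0.08; adjusted p = 0.188, edgeR), and the adjusted p was 0.0170 without TG ZT14 replicate 3. Ugt1a9, a phenol glucuronosyltransferase, had 100.1, 90.9 and 147 CPM in TG ZT14 livers and 231, 169.7 and 225 CPM in WT ZT14 livers. Its ZT2 values were 93.6, 147 and 74.2 CPM in TG livers and 152, 208 and 107 CPM in WT livers. The groups did not overlap at ZT14 and overlapped at ZT2, and the mean difference was -0.73 (SE 0.20; adjusted p = 0.352, edgeR). In both TG groups the highest Ugt1a9 value was in the library that stood apart. Since 2.93% of Ugt1a9 reads were uniquely placed, the 9 Ugt1a genes were also summed. The sum was 931, 1003 and 798 CPM in TG ZT14 livers, against 1142, 1072 and 1116 CPM in WT ZT14 livers. It was 851, 708 and 900.0 CPM in TG ZT2 livers, against 932, 950.3 and 739 CPM in WT ZT2 livers, so the groups separated at ZT14 and overlapped at ZT2.

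Sult1d1, which sulfates catecholamines and phenols in mice, had 75.1, 81.9 and 72.9 CPM in TG ZT14 livers, against 84.5, 103 and 89.1 CPM in WT ZT14 livers, without overlap. Its values at ZT2 were 60.0, 59.8 and 63.5 CPM in TG livers, against 73.5, 72.4 and 61.1 CPM in WT livers, with overlap. The mean difference was -0.22 (SE 0.07; adjusted p = 0.450, edgeR). Gstp1 had 1926, 2117 and 2078 CPM in TG ZT14 livers, against 2579, 2084 and 2496 CPM in WT ZT14 livers. In ZT2 livers, Gstp1 had 2387, 2011 and 1785 CPM in TG livers, against 2644, 2871 and 2310.4 CPM in WT livers. Its ranges overlapped at both times, and its mean difference was -0.28 (SE 0.09; adjusted p = 0.474, edgeR). With Gsta3 (-0.38 at ZT14, adjusted p = 0.638) and Gstm3 (0.65 at ZT2, adjusted p = 0.653, and 0.34 without WT ZT2 replicate 3), these include the 4 members of smallest p in each genotype comparison. The abundant Ugt2b5, Ugt2b1, Ugt2b36 and Ugt1a1 had mean differences of -0.08, -0.05, -0.15 and -0.21, and Sult2a8 and Sult1a1 of -0.26 and 0.19, none past the threshold.

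**Figure D3:**
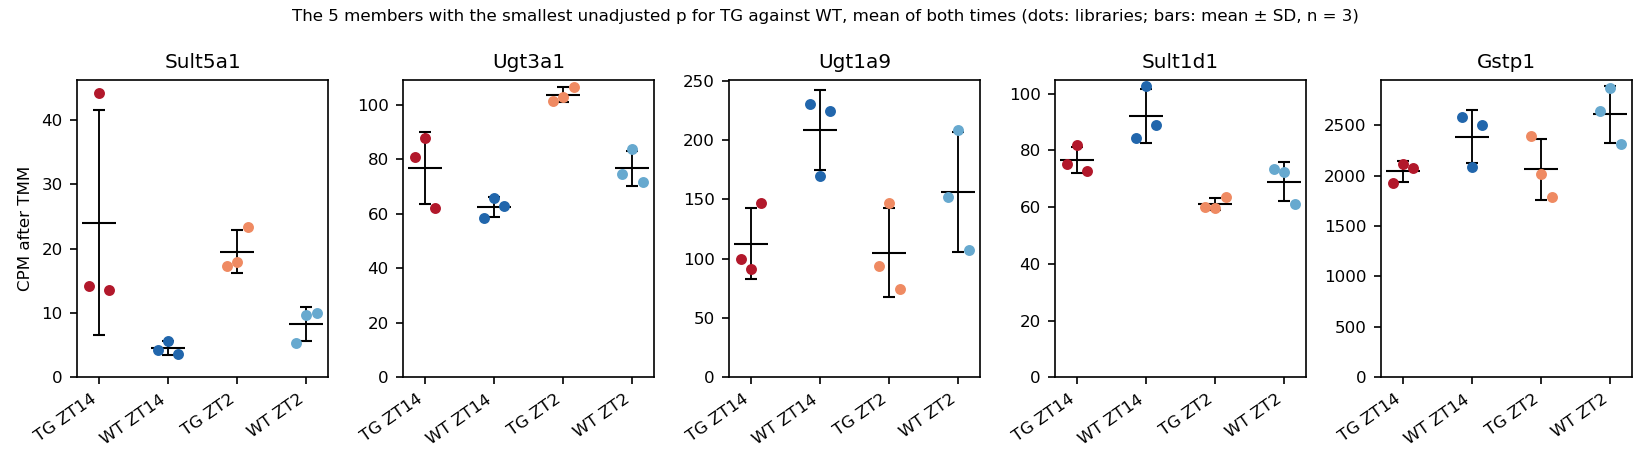
CPM after TMM scaling in each library (dots) with the mean and SD of 3 libraries (bars) for the 5 members of smallest unadjusted p for TG against WT over both times, in the order TG ZT14, WT ZT14, TG ZT2, WT ZT2. Sult5a1 separates TG from WT at both times, with 1 TG ZT14 library at 44.2 CPM, while the other 4 overlap at one time or at both.

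More members passed the test between early night and early day than between genotypes, at about the rate of all genes. In TG livers 2 members were higher and 5 lower at ZT14 than at ZT2, which is 14.6% of 48, beside 12.2% of all genes tested (6.7% higher and 5.52% lower). In WT livers 3 were higher and 1 lower, 8.33% of 48, beside 9.17% of all genes (4.85% higher and 4.32% lower). Members whose times did not overlap numbered 9 in TG and 15 in WT livers, or 18.8% and 31.2%, beside 30.0% and 29.3% of all genes. No library is shared by these comparisons, but their tests share an estimate of the spread drawn from all 12 libraries. The 3 members called in both, Ugt2b34, Gstm7 and Sult1d1, moved the same way in each, as did all 896 genes called in both. Of the 48 members 33 (68.8%) had the same sign, beside 71.0% of all genes.

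The lower genes were mostly mu-class transferases, which conjugate epoxides and quinones and lie side by side on chromosome 3 between 107895821 and 108044894. All 7 Gstm genes had a negative log2 difference, ZT14 less ZT2, in both genotypes, with a median of -0.59 in TG and -0.29 in WT livers, and 4 of 7 passed in TG and 1 of 7 in WT livers. Gstm4 (chr3:108040408-108044894, minus strand) had 22.1, 24.9 and 24.7 CPM in TG ZT14 livers, against 49.6, 48.7 and 50.3 CPM in TG ZT2 livers. It had 28.2, 28.1 and 32.1 CPM in WT ZT14 livers, against 48.02, 56.0 and 27.0 CPM in WT ZT2 livers. The TG groups were tight and far apart, while WT ZT2 replicate 3 fell below all WT ZT14 libraries. The difference was -1.05 in TG (SE 0.19; adjusted p = 0.00415, edgeR) and -0.56 in WT livers (SE 0.19; adjusted p = 0.0904), and without WT ZT2 replicate 3 the WT value was -0.82 (adjusted p = 0.000691) and without WT ZT2 replicate 2 it was -0.35.

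Gstm7 (chr3:107926334-107931817, minus strand) had 26.9, 32.2 and 37.3 CPM in TG ZT14 livers, against 43.7, 55.6 and 46.3 CPM in TG ZT2 livers. It had 31.7, 28.5 and 30.3 CPM in WT ZT14 livers, against 41.0, 43.3 and 37.7 CPM in WT ZT2 livers. The times did not overlap in either genotype, and the log2 difference was -0.59 in TG (SE 0.12; adjusted p = 0.00748, edgeR) and -0.43 in WT livers (SE 0.12; adjusted p = 0.0444). In TG livers Gstm6 had 52.1, 65.4 and 56.3 CPM at ZT14, against 76.4, 88.5 and 94.5 CPM at ZT2, and Gstm2 had 24.7, 30.6 and 34.2 CPM at ZT14, against 43.7, 41.7 and 48.9 CPM at ZT2. Both were lower at ZT14 without overlap, by -0.58 (SE 0.12; adjusted p = 0.00922) and -0.59 (SE 0.14; adjusted p = 0.0172), and stood at -0.29 and -0.29 in WT livers. The abundant Gstm1 stood at -0.28 in TG and -0.09 in WT livers and passed in neither. No Gstm gene passed for the difference between the genotypes' time effects, for which the 7 values ran from -0.59 to 0.12. The WT call of Gstm7 was lost without 9 of the 12 libraries left out in turn, every WT library among them (highest adjusted p 0.130), and the TG call of Gstm2 without TG ZT2 replicate 3 or TG ZT14 replicate 1 (highest 0.0703). Those of Gstm4, Gstm6 and Gstm7 in TG livers held in all 12, but that of Gstm6 was lost without both TG libraries that stood apart (adjusted p 0.0595). The WT call of Gstm7 was also lost under library size scaling alone (adjusted p 0.105).

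Ugt3a1 was the other gene called lower at ZT14. From the values above, all TG ZT14 libraries were below all TG ZT2 libraries, with a log2 difference of -0.43 (SE 0.11; adjusted p = 0.0267, edgeR) in TG and -0.30 (adjusted p = 0.135) in WT livers. The TG call was lost without TG ZT14 replicate 3 or any 1 TG ZT2 library (highest adjusted p 0.0863).

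The genes higher at ZT14 were Gsta3, Ugt2b34 and Sult1d1. Gsta3 (chr1:21240589-21265661, plus strand) had 1097, 1487 and 1192 CPM in TG ZT14 livers, against 1048, 1084 and 1225 CPM in TG ZT2 livers. It had 1614, 1636 and 1679 CPM in WT ZT14 livers, against 1171, 1066 and 824 CPM in WT ZT2 livers. The WT times were clearly apart and the TG times overlapped. The WT difference was 0.69 (SE 0.14; adjusted p = 0.01002, edgeR) and held with each library left out, and the TG difference was 0.17 (SE 0.14; adjusted p = 0.502). The difference between these was -0.52 (SE 0.20; unadjusted p = 0.0244, adjusted p = 0.780, edgeR), so Gsta3 was not shown to differ between genotypes in its time effect.

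Ugt2b34 (chr5:86889767-86906937, minus strand), of the steroid-conjugating Ugt2b subfamily, had 574, 515 and 489.9 CPM in TG ZT14 livers, against 385, 334 and 388 CPM in TG ZT2 livers. It had 478, 475 and 457 CPM in WT ZT14 livers, against 396, 345 and 325 CPM in WT ZT2 livers. The times did not overlap in either genotype, and the difference was 0.51 in TG (SE 0.10; adjusted p = 0.00641, edgeR) and 0.40 in WT livers (SE 0.10; adjusted p = 0.0259). The WT call was lost without WT ZT2 replicate 2 or 3 or any 1 WT ZT14 library (highest adjusted p 0.0948). Sult1d1, by the values above, was higher at ZT14 by 0.33 in TG (SE 0.10; adjusted p = 0.0434) and 0.42 in WT livers (SE 0.10; adjusted p = 0.0164), without overlap in either. The WT call of Sult1d1 was lost without WT ZT2 replicate 3 or WT ZT14 replicate 2 (highest adjusted p 0.0661), and its TG call without 9 of the 12 libraries, all 6 TG libraries among them (highest 0.139). Its neighbour Sult1b1 stood at -0.36 and -0.24, and did not pass.

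**Figure D4:**
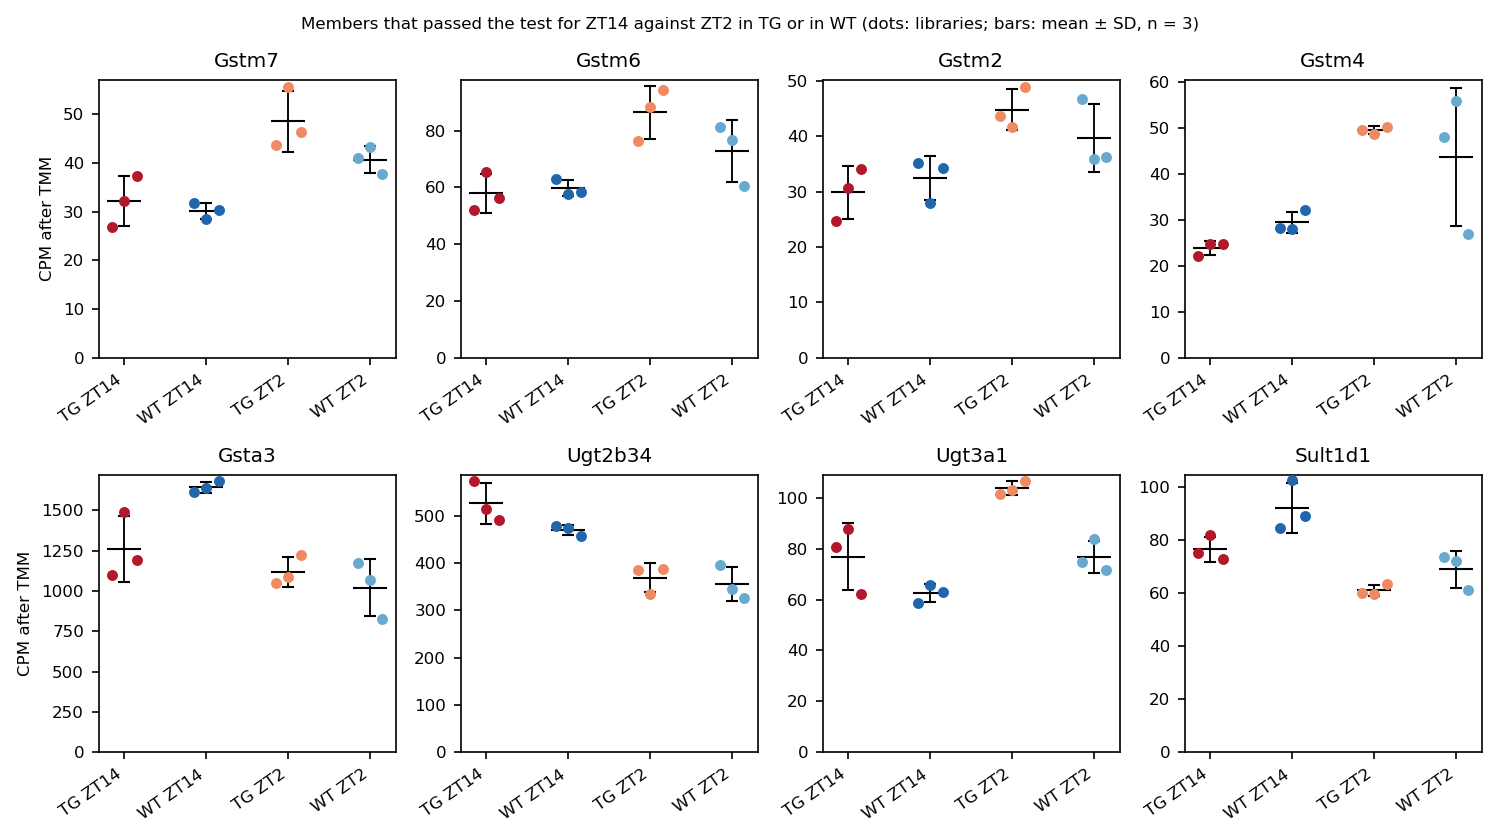
CPM after TMM scaling in each library (dots) with the mean and SD of 3 libraries (bars) for the 8 members that passed the test for ZT14 against ZT2 in TG or in WT livers. The Gstm genes and Ugt3a1 are lower at ZT14, and Ugt2b34 and Sult1d1 higher; Gsta3 is higher at ZT14 in WT livers, and WT ZT2 replicate 3 is the low point of Gstm4 at 27.0 CPM.

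No member passed for a time effect that differed between TG and WT livers, beside 0.00656% of all genes (edgeR; none with DESeq2), and 1 of 48 members (Gsta3) had an unadjusted p below 0.05, beside 5.98% of all genes. Next to Gsta3 by p came Gstp2 (0.95, SE 0.44), Sult5a1 (1.17, SE 0.59) and Gsta1 (-1.83, SE 0.97). Each moved with 1 library left out: Gstp2 stood at 0.61 without TG ZT14 replicate 3, Sult5a1 at 0.38 without TG ZT14 replicate 2, and Gsta1 at -0.999 without TG ZT2 replicate 2 and -2.85 without TG ZT14 replicate 3. Over the 19 Gst genes the median of this difference was -0.29, with 16 negative, beside 0.00 over all genes tested. It was -0.17 without WT ZT2 replicate 3 and -0.40 without TG ZT14 replicate 3.

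Gst values were low across the family in a pair of libraries, picked out after the values were seen. In TG ZT14 replicate 1, 16 of 19 Gst genes (84.2%) were the lowest of the 6 libraries of that time, as were 19.1% of all genes. In WT ZT2 replicate 3, again 16 of 19 were the lowest of 6, as were 16.1% of all genes. The median of the 19 genes against WT livers of the same time was -0.35 and -0.53 on the log2 scale in these libraries, beside -0.08 to 0.28 in the other 10. The alpha-class genes, which conjugate lipid peroxidation products such as 4-hydroxynonenal, and the theta-class genes had the largest median deviations. All 4 Gsta and all 3 Gstt genes were lowest in both libraries, as were 5 of 7 Gstm genes in each. In WT ZT2 replicate 3 Gstm3, Gstm1 and Gstm4 stood at -0.82, -0.69 and -0.62, with a median of -0.30 over the 7 Gstm genes. Gsta4, the 4-hydroxynonenal transferase, had 18.6, 35.7 and 53.4 CPM in TG ZT14 livers, against 50.7, 48.03 and 59.9 CPM in WT ZT14 livers. At ZT2 Gsta4 had 32.4, 58.9 and 43.3 CPM in TG livers, against 46.5, 50.3 and 23.0 CPM in WT livers. Gstt1, which acts on small halogenated compounds, had 90.4, 147 and 94.1 CPM in TG ZT14 livers, against 172, 169 and 175 CPM in WT ZT14 livers. At ZT2 Gstt1 had 127, 94.9 and 165 CPM in TG livers, against 176, 149 and 92.7 CPM in WT livers. For both genes the first TG ZT14 library and the third WT ZT2 library were low. Depth, unique share and intron share of these 2 libraries lay within the range of the other 10, and the cause of their low Gst values was not tested. Without both, the Gst median was -0.00 for TG against WT at ZT14, 0.03 at ZT2 and -0.10 for the difference between the time effects. The members called then numbered 0 at ZT14, 0 at ZT2 and 1 for the mean of both times, and 5 for time in TG and 5 in WT livers, in an alternative added after the data were seen. Over all genes the calls in this alternative numbered 12 at ZT14, 22 at ZT2 and 22 for the mean of both times, and 1328 for time in TG and 1109 in WT livers.

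**Figure D5:**
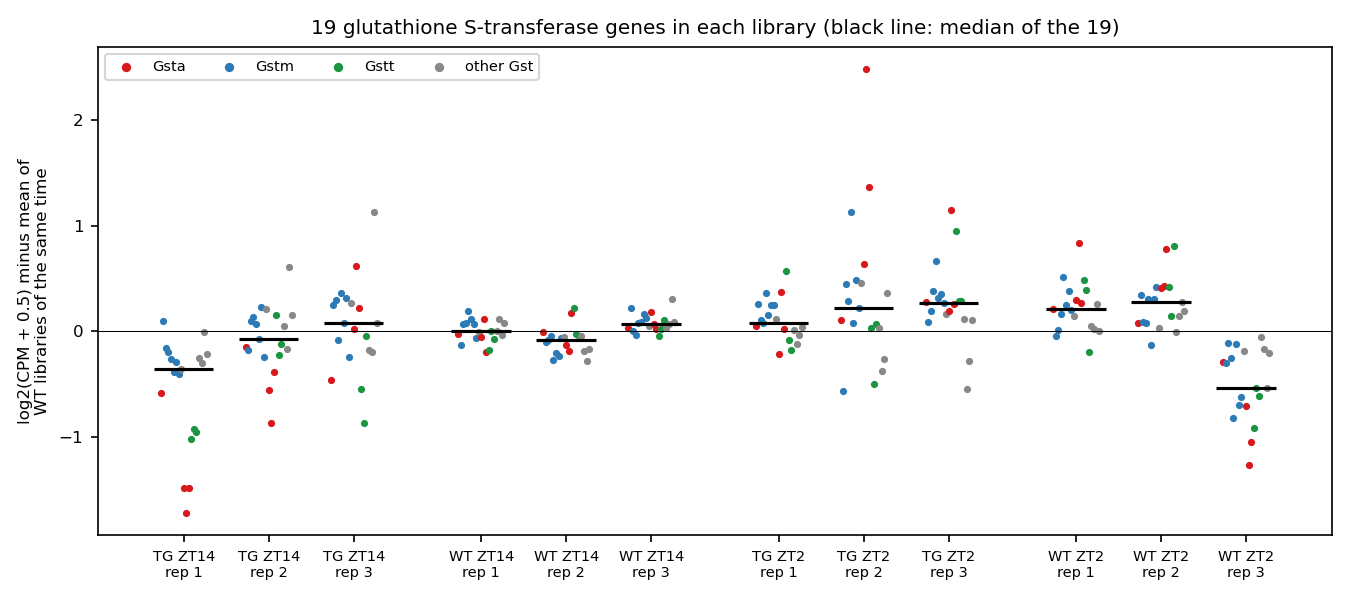
Each dot is 1 of the 19 Gst genes in 1 library, as log2(CPM + 0.5) less the mean of the WT libraries of the same time, coloured by class, and the black line is their median. The medians are lowest in WT ZT2 replicate 3 (-0.53) and TG ZT14 replicate 1 (-0.35), and the TG ZT2 replicate 2 dot at the top is Gsta1.

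The median spread between libraries of one group was wider in each of the 3 families than over all genes tested. The pooled SD on the log2 scale had a median of 0.31 over Gst, 0.30 over Sult and 0.22 over Ugt genes, beside 0.18 over all genes tested. By subfamily it was 0.64 over the 4 Gsta, 0.46 over the 3 Gstt and 0.28 over the 9 Ugt1a genes. Within Gst, Gstz1 and Gstp1 stood lower, at 0.09 and 0.16. Over the 7 Ugt2b genes the median was 0.14, but Ugt2b37 and Ugt2b38 were wide, at 0.60 and 0.74. Ugt2a3, at 0.07, was the most even member between libraries of a group. In the pair of libraries that stood apart on the second principal component, Gsta1, Gsta2 and Ugt1a9 were more than 0.5 above, and Ugt1a6a more than 0.5 below, the other libraries of their group in both, which is 8.33% of the members, beside 2.30% of all genes. Gsta1 had 1.88, 3.80 and 11.5 CPM in TG ZT14 livers, against 8.00, 6.36 and 7.68 CPM in WT ZT14 livers, and 3.64, 17.3 and 6.58 CPM in TG ZT2 livers, against 5.17, 3.80 and 0.827 CPM in WT ZT2 livers, so that each TG group was spread widely. Ugt genes were low in TG ZT14 replicate 3, with 13 of 20 (65.0%) the lowest of 6 libraries, as were 22.6% of all genes. Among the 13 were 7 of the 9 Ugt1a genes, which share reads and are not separate measurements, and 5 of the 7 Ugt2b genes.

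Genes that supply donors to these enzymes are given by 3 lists, which also hold some genes that use a donor or reverse the reaction. In the genotype comparisons, and for a time effect that differed between TG and WT livers, none of their members passed in edgeR or DESeq2. For the mean of both times 2 of 6 genes of UDP-glucuronic acid supply, 3 of 11 of sulfate supply and 5 of 15 of glutathione turnover had an unadjusted p below 0.05, beside 8.82% of all genes. For time, the counts that follow stand beside 12.2% of all genes called in TG and 9.17% in WT livers. Of the UDP-glucuronic acid genes only Gusb, the glucuronidase that reverses the reaction, passed for time in edgeR, at 0.56 in TG and 0.54 in WT livers (adjusted p = 0.000854 and 0.00121, edgeR). Of 11 genes of sulfate activation and supply, 2 were higher and 1 lower at ZT14 in TG livers, and 3 higher and 1 lower in WT livers, among them Tpst1, a protein tyrosine sulfotransferase, at 0.53 and 0.56, and the sulfate exchanger Slc26a1 at 0.80 in WT livers. Of 15 genes of glutathione synthesis and turnover, 2 were higher and 5 lower at ZT14 in TG and 3 lower in WT livers. Gclc, the catalytic subunit of the rate-limiting enzyme of glutathione synthesis, had 191, 232 and 195 CPM in TG ZT14 livers, against 368, 480.2 and 374 CPM in TG ZT2 livers. It had 258, 198 and 249 CPM in WT ZT14 livers, against 356, 377 and 346 CPM in WT ZT2 livers. These differences were -0.98 (SE 0.13; adjusted p = 0.000583, edgeR) in TG and -0.61 (SE 0.13; adjusted p = 0.0110) in WT livers, in the direction of the Gstm genes. Cbs, which makes cystathionine on the way to cysteine, stood at -0.98 and -1.10, and both passed.

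Downstream of Gst, mercapturates are made by removal of glutamate and glycine from the glutathione conjugate and acetylation of its cysteine. Of 10 tested genes of this list 3 were lower in TG livers at ZT14 and none passed at ZT2 (2 at an unadjusted p below 0.05, 1 with DESeq2), and 2 were lower for the mean of both times. Of all genes tested 0.0853% passed at ZT14, 0.0722% at ZT2 and 0.144% for the mean, and 7.56% had an unadjusted p below 0.05 at ZT2. The list was chosen with earlier results of these data known, so its counts beside these shares are not a test of the pathway. The called genes of this list named here are all of the Nat8 family. Nat8, the cysteine-conjugate acetyltransferase, had 3.49, 5.11 and 2.90 CPM in TG ZT14 livers, against 12.9, 13.2 and 14.6 CPM in WT ZT14 livers. At ZT2 Nat8 had 2.83, 3.02 and 3.58 CPM in TG livers, against 9.92, 7.53 and 6.46 CPM in WT livers, so TG libraries were below WT libraries at both times. Its mean log2 difference was -1.58 (SE 0.15; adjusted p = 0.000261, edgeR), and those of its family members at ZT14 were -1.45 for Nat8f5 (adjusted p = 0.0287) and -1.47 for Nat8f6 (adjusted p = 0.00373). Of 18 other conjugating enzymes tested, only As3mt, the arsenite methyltransferase, passed for genotype. It passed for the mean of both times, as did 0.144% of all genes. As3mt had 52.4, 51.1 and 60.2 CPM in TG ZT14 livers, against 37.7, 40.9 and 39.1 CPM in WT ZT14 livers, and 37.7, 37.1 and 37.5 CPM in TG ZT2 livers, against 27.2, 27.2 and 21.0 CPM in WT ZT2 livers, without overlap at either time, and its mean difference was 0.52 (SE 0.07; adjusted p = 0.00942, edgeR).

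Of 19 regulators of phase II genes, among them the sensors CAR and PXR, NRF2 and the activators DBP, TEF and HLF, none passed for genotype in edgeR or DESeq2. For the mean of both times 1 of the 19 had an unadjusted p below 0.05, beside 8.82% of all genes. At ZT14 against ZT2, 5 were higher and 1 lower in TG livers, and 7 higher and 1 lower in WT livers, beside 12.2% and 9.17% of all genes called in either direction. The D-box activators were all higher, by 4.12 (Dbp), 2.06 (Tef) and 1.02 (Hlf) in TG and by 2.39, 1.73 and 1.07 in WT livers. The xenobiotic sensor genes Nr1i3 (CAR) and Nr1i2 (PXR) passed in WT livers, at 0.86 (adjusted p = 0.0478, edgeR) and 0.44 (adjusted p = 0.0455), and stood at 0.66 and 0.14 in TG livers, where they did not pass. For a time effect that differed between TG and WT livers, 0 of the 19 passed, beside 0.00656% of all genes (edgeR). At an unadjusted p below 0.05 there was 1 of the 19, beside 5.98% of all genes. So none of these regulators was shown to differ between genotypes in its time effect. Among sex-biased genes outside the families, the mean TG difference passed in 1 of 17 female-biased genes, Ntrk2 (2.24, adjusted p = 0.0359), and in 0 of 25 male-biased genes (edgeR). Over all genes tested 0.144% passed. At an unadjusted p below 0.05 there were 7 of the 17 and 5 of the 25, beside 8.82% of all genes. With DESeq2 2 and 1 passed, beside 75 of all 15244 genes.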

How the data were processed

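Poly(A) RNA of mouse liver, in 4 groups of 3 libraries, was sequenced, and the authors deposited, per library, total, unique, exon and intron read counts per gene, and RPKM values. In the deposited tables total reads equal exon plus intron reads, and RPKM is exon reads scaled by exon length and total gene reads, per the file headers and values. The build is mm10/GRCm38, per the submitters' processing notes, and no aligner or counter is named by the sources used here. Total gene read counts, as deposited, were fitted with edgeR 4.0.16 in R 4.3.3 (quasi-likelihood test, TMM scaling, filterByExpr with a minimum count of 10, 1 coefficient per group over all 12 libraries), which left 15244 genes. Each of 6 contrasts was adjusted by Benjamini-Hochberg over these genes, with a threshold of 0.05. SE is the log2 fold change divided by the root of its F statistic. The mean of both times weights the times equally. The procedure was tested on simulated data.

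Replicates differed by more than sampling noise in every pair. Alternatives were other scalings, no filter beyond 1 read, DESeq2 1.42.0, unique or exon reads, a replicate block, leaving out each library, and leaving out 2 pairs of libraries, of which 1 was added after the data were seen. Members and gene lists were chosen with earlier results of these data known. Genes named were those called in any contrast, the 4 highest of each family, the 4 of smallest p per contrast, Nfil3, and up to 4 called genes per list and contrast. Others, such as Gsta4, Gstt1, Ugt2a3, Sult1b1, Ugt1a6a and the genes beside Sult5a1, were named after their values were seen. Promoter sequences are from RefSeq (GRCm38.p6). The number of mapped reads limits precision for genes of few reads.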

Additional observations from a re-analysis of the deposited data

How the results depend on the processing

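The members called kept within 1.5 times of the reported counts under other scalings, exon reads and the replicate block, with these exceptions. At ZT14 TG against WT the count was 1 (Sult5a1) in place of 0 without a filter, with DESeq2 and with unique reads, and 0 to 1 with single libraries left out. For the mean of both times it was 3 in place of 1 without a filter and with DESeq2, which added Ugt3a1 (adjusted p 0.0464 and 0.0171) and Ugt1a9 (0.0298 and 0.0273), and 0 to 2 with single libraries left out. For time in WT livers it ran from 1 to 5, and in TG livers from 4 to 8, with single libraries left out. Over all genes these time calls ran from 770 to 1511 in WT (1398 as reported) and from 1127 to 1873 in TG livers (1862 as reported). Without TG ZT14 replicate 3 and TG ZT2 replicate 2 together, the TG time count was 4 in place of 7, beside 1150 in place of 1862 over all genes. At ZT2 and for the interaction the count of members was 0 throughout. Over all genes, the calls at ZT14, at ZT2, for the mean and for the interaction numbered 13, 11, 22 and 1 as reported, 41, 43, 61 and 11 without a filter, and 53, 57, 75 and 21 with DESeq2. With single libraries left out, the family medians for genotype changed sign for Ugt at ZT14 and Sult at ZT2. For the mean of both times they changed sign in each family, from -0.05 to 0.14 for Gst, -0.11 to 0.03 for Ugt and -0.14 to 0.10 for Sult. The WT time call of Gstm7 was lost under library size alone (adjusted p 0.105) and under the replicate block (0.0578). The TG time call of Sult1d1 was lost with RLE scaling, without a filter beyond 1 read and without either pair of libraries (highest adjusted p 0.137, edgeR). Same-numbered libraries did not deviate together (correlations -0.25 to 0.15), so the numbers were not taken as pairs. With them as a replicate block the counts were 0 at ZT14, 0 at ZT2, 1 for the mean, 3 for time in WT, 7 in TG and 0 for the interaction. Over all genes the block gave 14, 12, 18, 1370, 1829 and 2 in the same order. Depth limits Sult5a1, with 84 reads in its lowest library, and shared reads limit the Ugt1a genes, Gstp1, Gstp2 and Gstt3.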
